A study of Mus musculus with 28 samples.

Results

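MC38 tumour cells that shared a culture with OT1 T cells and received anti-PD1 were compared with MC38 cells kept alone. The comparison sets the 3 libraries of this anti-PD1 co-culture, found by their column names, against 3 libraries of MC38 alone, 6 of the 28 samples of the series, over every gene of the co-culture table. The study exposed MC38, a mouse colon carcinoma line, to TNF, to IFNG, to both cytokines, to supernatant of a co-culture or to OT1 T cells. Per the labels the cytokine groups were exposed for 6 hours. For the supernatant group and the untreated MC38 set beside them no time is recorded. OT1 cells are CD8 T cells of a transgenic mouse, whose receptor recognises an ovalbumin peptide presented by H2-K1. The co-culture group received OT1 cells and anti-PD1 and, per the labels, was exposed for 6 hours. The control group is labelled as MC38 only, a label that names neither T cells nor antibody, and no time is recorded for it. Another group of 3 libraries, MC38 with OT1 cells and an isotype control antibody for 6 hours, is set beside these results. All groups grew in DMEM with fetal calf serum, penicillin and streptomycin.

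The library names carry MC38, and other samples of the same co-cultures carry OT1 and were not analysed here, but the sources used here do not say how tumour and T cells were parted. Nor do they say whether the MC38 cells carried ovalbumin. The third anti-PD1 library was placed by its description and column name, because both its title and its treatment label read untreated. One isotype library, the second, carries the name OT2 where its fellows carry OT1. Because the control label names neither T cells nor antibody, what the T cells did and what anti-PD1 did cannot be told apart in this contrast. MC38 is 1 line, and the labels do not say that replicates were separate cultures, so each p-value rests on the spread over these libraries alone, which may be technical.

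As background, activated CD8 T cells release interferon-gamma and TNF and kill target cells with granzymes and death ligands. Interferon-gamma signals through JAK kinases and switches on IRF1 and, with it, genes of antigen presentation, T cell chemokines and the PD1 ligand encoded by Cd274. TNF frees NF-kB from its inhibitors, and NF-kB in turn induces those inhibitors, survival genes and further chemokines. PD1 is an inhibitory receptor of T cells, and antibodies against it block its contact with this ligand.

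Values are log2 CPM from the 3' end of transcripts, so a difference of 1 is a 2-fold change. The depth read from the steps between low values was 7480000, 7620000 and 3730000 reads in the 3 controls and 6750000, 5760000 and 11000000 in the 3 anti-PD1 libraries. The third control was the shallowest and stood apart. It correlated at 0.923 with its fellow controls, which correlated at 0.969 with each other across genes, and the second principal component (18.7% of the variance) set it apart from all other libraries. It also held T cell RNA, and the labels do not settle whether this library was contaminated or mislabelled. The summed level of 23 T cell markers was 9.12, 11.9 and 91.8 CPM in the 3 controls, against 69.6, 73.3 and 78.3 CPM in the anti-PD1 libraries. The summed level of 27 genes of T cell effector function and activation was 58.0, 39.8 and 107 CPM in the controls and 383, 440 and 457 CPM in the anti-PD1 libraries, so here no control reached the co-cultures. T cell RNA thus moved with the comparison, and its part in the results was not tested. In bulk RNA, fewer cells of a type and less RNA per cell cannot be told apart. Of the markers of the line itself none passed the test below. Vim, the intermediate filament of mesenchymal cells, stood at 10.22, 10.37 and 10.39 alone and 10.28, 10.44 and 10.05 in co-culture, and the epithelial keratin Krt8 was close to the detection floor, at 0.064, 0.46 and 0.030 alone and 1.19, -1.03 and -0.84 in co-culture.

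**Figure D1:**
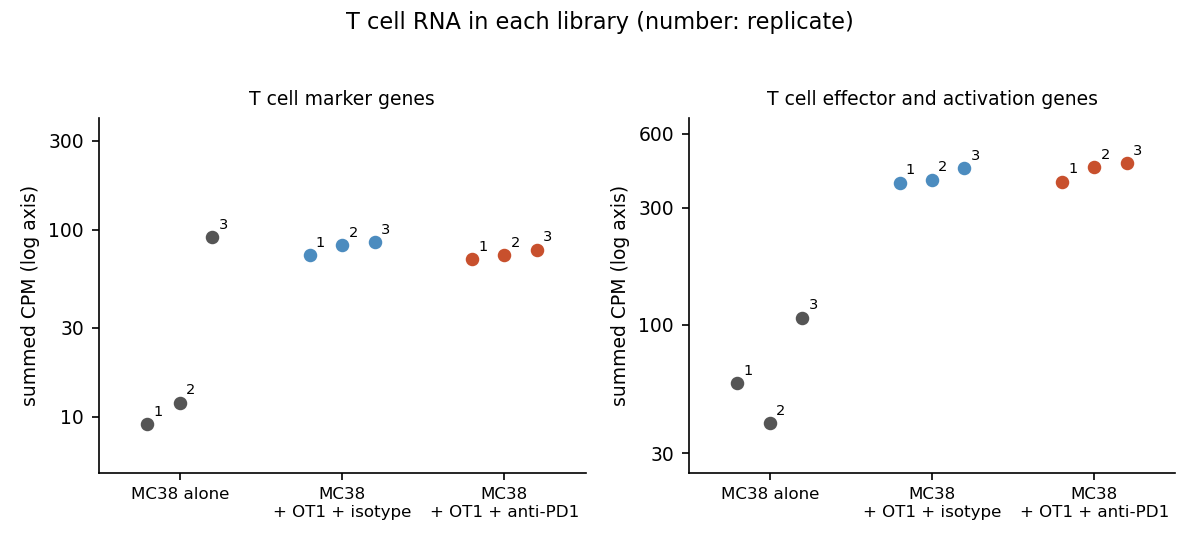
Summed level in CPM (log axis) of T cell markers (left) and of T cell effector and activation genes (right), 1 dot per library for MC38 alone, isotype co-culture and anti-PD1 co-culture. The third control reaches 91.8 CPM of T cell markers, above every anti-PD1 library, but 107 CPM of effector genes, below the 383 to 457 CPM of the anti-PD1 libraries.

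Of 12707 genes tested, 1070 rose (8.42%) and 980 fell (7.71%) in the anti-PD1 co-culture relative to MC38 alone (limma on all 9 libraries of the table, Benjamini-Hochberg adjusted p under 0.05). At least 2-fold changes made up 596 of the rises and 263 of the falls. The first principal component (41.1% of the variance) separated all 3 controls from all 6 co-cultures. Without the third control 1322 genes rose and 1249 fell. Without the third anti-PD1 library 711 rose and 517 fell, and without both 1054 rose and 865 fell. Leaving out the first or the second anti-PD1 library lowered the counts as much, to 764 and 550 or to 723 and 503. No gene that passed in both fits changed direction with any library left out. The isotype co-culture, compared with the same 3 controls, had 971 genes higher (7.64%) and 790 lower (6.22%). Those controls are shared, so the 2 comparisons are not independent, and their values are given side by side.

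**Figure D2:**
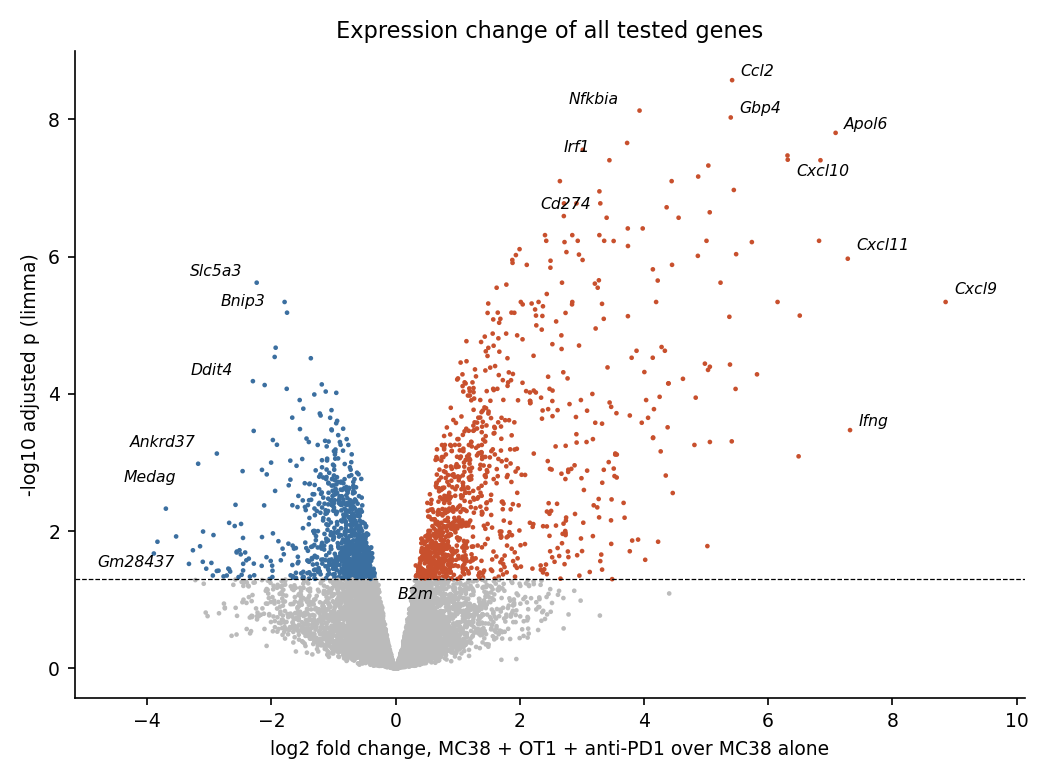
Log2 fold change of the anti-PD1 co-culture over MC38 alone (x axis) against -log10 of the adjusted p-value (y axis) for the 12707 genes tested, 1 dot per gene, with genes past an adjusted p of 0.05 in colour and some genes labelled. The labelled rises reach a log2 fold change of 8.86 (Cxcl9), and the labelled falls reach -3.26 (Gm28437).

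Promoters of the genes that the results turn on are shown as the stretch of RefSeq sequence (GRCm38.p6, gene strand, upper-case letters marking each match) around short motifs bound by the transcription factors of these pathways. The motifs were searched on both strands. Matches in the sequences shown were taken from the 250 bases before the start, and the shares over promoters given after them count 250 bases before to 50 after each start. They were GAAANNGAA, a core of interferon-stimulated response elements, which IRF proteins bind (ISRE), TTCNNNGAA, the palindrome of gamma-activated sites (GAS), GGGANTTTC, an NF-kB core (kB), and ACGTG, the core bound by hypoxia-inducible factors (HRE).
Irf1, chr11:53769884-53769972 (plus strand), GAS from base -90 relative to the start: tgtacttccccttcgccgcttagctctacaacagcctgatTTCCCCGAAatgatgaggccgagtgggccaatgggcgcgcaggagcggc
Gbp2, chr3:142620565-142620653 (plus strand), ISRE from base -58: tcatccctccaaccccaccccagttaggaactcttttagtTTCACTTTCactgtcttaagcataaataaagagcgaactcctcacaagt
Cxcl9, chr5:92328185-92328294 (minus strand), ISRE from base -175 and kB from base -154: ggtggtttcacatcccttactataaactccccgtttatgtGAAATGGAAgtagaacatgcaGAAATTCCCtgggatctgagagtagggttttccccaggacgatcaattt
Cxcl10, chr5:92349054-92349139 (minus strand), ISRE from base -213: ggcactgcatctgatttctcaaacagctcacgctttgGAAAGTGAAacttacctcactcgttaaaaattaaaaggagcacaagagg
Cd274, chr19:29367322-29367410 (plus strand), ISRE from base -76: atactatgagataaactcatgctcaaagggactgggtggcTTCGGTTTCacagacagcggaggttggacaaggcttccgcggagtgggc
Nfkbia, chr12:55492648-55492800 (minus strand), kB matches from base -113 on and ISRE from base -53: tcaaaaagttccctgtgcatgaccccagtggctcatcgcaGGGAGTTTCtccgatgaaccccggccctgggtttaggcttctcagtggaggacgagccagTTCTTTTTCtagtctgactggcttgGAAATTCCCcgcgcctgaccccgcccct
Bnip3, chr7:138909569-138909654 (minus strand), HRE from base -108: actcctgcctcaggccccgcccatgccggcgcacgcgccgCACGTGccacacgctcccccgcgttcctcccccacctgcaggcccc

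The first 6 of these genes rose and Bnip3 fell. They were picked among genes that passed and whose promoters held a match, so these stretches do not show how common matches are. B2m, which did not pass, also had an ISRE match from base -139 and a kB match from base -125. Kdm3a, Medag and Mrpl42, which fell, had a GAS match. RefSeq held promoters for 786 of the 1070 genes that rose and for 738 of the 980 that fell. An ISRE match stood in 13.2% of the promoters of genes that rose, in 6.34% of those of genes that fell and in 7.13% of those of all genes tested. A kB match stood in 2.34%, 0.537% and 0.935%, and a GAS match in 10.3%, 4.51% and 6.77%. For the HRE core the shares were 24.2%, 26.7% and 25.8%. Among interferon-induced GTPases, 10 of 12 promoters (11 of the 19 genes) held an ISRE match, the highest share of the lists searched. The ISRE share was 36.6% for antiviral genes, 28.6% for chemokines (2 of 7 promoters) and 22.7% for MHC class I genes. It was 14.3% for NF-kB targets and 5.88% for hypoxia genes. The HRE share of the hypoxia genes was 58.8% (10 of 17 promoters). The kB share was 42.9% for chemokines (3 of 7 promoters) and 10.7% for NF-kB targets. The ISRE and GAS motifs can overlap, and a match describes the letters only.

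Genes that carry or damp the interferon-gamma signal were followed as receptors, kinases and feedback inhibitors. Of 18 genes of the receptor, JAK-STAT and feedback list, 11 rose and 1 fell, with a median log2 fold change of 0.84, against -0.06 over all genes tested. Without the first or the third anti-PD1 library 7 of them rose. Both receptor chains rose, Ifngr1 by a log2 fold change (± SE) of 0.76 ± 0.18 (adjusted p = 0.0168) and Ifngr2 by 0.99 ± 0.24 (adjusted p = 0.0193). The Ifngr1 call ended without any 1 anti-PD1 library (adjusted p = 0.0503, 0.0505 and 0.0603) and the Ifngr2 call without the first or the third (0.0702 and 0.0689). The receptor-bound kinase genes moved apart. Jak2 rose by 1.39 ± 0.18 (adjusted p = 0.000553), whereas Jak1 fell by 0.68 ± 0.18 (adjusted p = 0.0257). The Jak1 call ended without the second control or the second or the third anti-PD1 library (adjusted p = 0.0635, 0.0519 and 0.0949). The feedback inhibitor Socs1, which blocks JAK kinases, went from 5.14, 4.70 and 5.24 to 8.29, 8.51 and 8.10, the largest rise of the list (9.67-fold, 3.27 ± 0.19, adjusted p = 2.21e-06). Socs3, a sister inhibitor, rose by 2.67 ± 0.20 (adjusted p = 1.4e-05), and Usp18, which damps type I interferon signalling, by 1.48 ± 0.12 (adjusted p = 2.8e-05).

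Of 8 interferon regulatory factors 7 rose (median 1.85). Irf1, chr11:53770014-53778374, an early factor of the interferon response, stood at 8.32, 8.25 and 7.99 alone and at 11.64, 11.70 and 11.55 in co-culture. The 3 co-cultures lay above every control by over 3 log2 units, a 10.9-fold rise (3.44 ± 0.11, adjusted p = 3.92e-08). The third control had the lowest Irf1 of all libraries. Irf5 rose by 2.25 ± 0.15, Irf7 by 1.45 ± 0.18 and Irf2, which can oppose Irf1, by 1.26 ± 0.12 (adjusted p = 5.87e-06, 0.000411 and 9.43e-05). Irf8 and Irf4, factors mainly of immune cells, had 2 controls at or near the lowest value and 1 above it. Irf8 stood at -1.63, -2.66 and 1.07 alone and 3.22, 3.61 and 3.35 in co-culture (adjusted p = 0.00278), and Irf4 at -2.58, -2.66 and 0.69 and 1.86, 1.87 and 2.14 (adjusted p = 0.0153). The Irf4 call was lost without the third anti-PD1 library (adjusted p = 0.057). Irf3, which is activated by phosphorylation, stood at -0.47 ± 0.35 (adjusted p = 0.406).

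Interferon-induced GTPases, which attack the membranes around intracellular microbes, rose in 18 of 19 cases, with a median log2 fold change of 3.77. Gbp2, chr3:142620602-142638008, went from 3.03, 3.41 and 3.72 to 8.60, 8.34 and 8.32. This 32.8-fold rise left more than 4 log2 units between the groups (5.04 ± 0.17, adjusted p = 4.69e-08). Gbp4 rose by 5.40 ± 0.14, Gbp2b by 5.48 ± 0.29, Igtp by 3.98 ± 0.18 and Irgm1 by 2.72 ± 0.14. Iigp1, which tears open parasite vacuoles, stood at 2.75, 3.05 and 4.15 alone and at 9.16, 9.05 and 8.95 in co-culture (5.74 ± 0.29, adjusted p = 6.12e-07). Tgtp1 and Tgtp2, near-identical copies whose reads may be shared between them, stood at 5.48 ± 0.53 and 5.45 ± 0.21. The 1 member that did not pass, Gbp11, was near the detection floor (adjusted p = 0.444).

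Antiviral genes rose as well, 36 of 43 with a median of 1.51, and 32 to 38 of them across the settings tried. Rsad2, which makes a chain-terminating nucleotide, stood at 7.99, 7.93 and 8.29 alone and 11.50, 11.20 and 11.41 in co-culture, a 9.83-fold rise with no overlap (3.30 ± 0.13, adjusted p = 1.67e-07). Its neighbour gene Cmpk2, a nucleotide kinase, rose by 3.41 ± 0.30, and Ifit3b, of the family that binds foreign RNA, by 2.75 ± 0.14. Zbp1, a sensor of Z-form nucleic acid that can start necroptosis, went from 0.53, 0.69 and 0.29 to 3.97, 3.78 and 3.72 (3.32 ± 0.22, adjusted p = 4.86e-06). The RNA sensor Ifih1 rose by 1.16 ± 0.19 (adjusted p = 0.0023). Bst2, Isg20, Oas2, Oas3, Ifi27, Uba7 and Lgals3bp did not pass, though Isg20 and Oas3 did without the third control (adjusted p = 0.0271 and 0.006). Among these Bst2, a tether of budding virus, stood at 7.41, 7.47 and 5.91 alone, where the third control was far below the other two, and at 7.87, 7.61 and 7.59 in co-culture (adjusted p = 0.165).

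**Figure D3:**
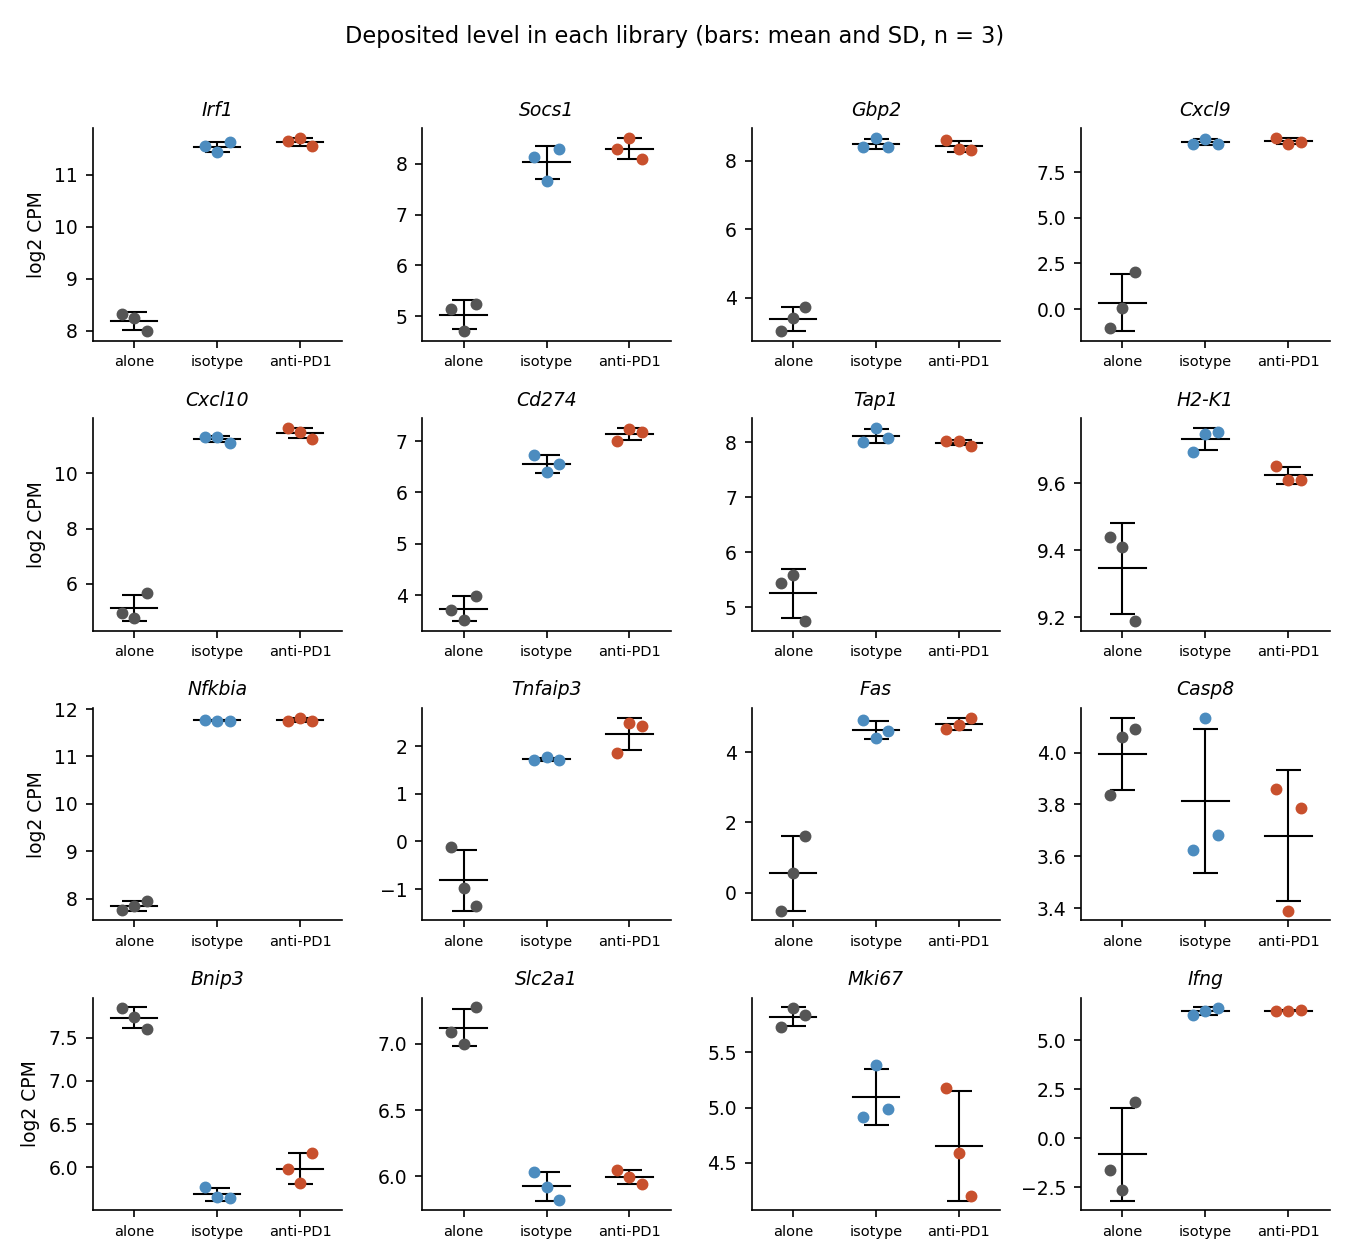
Log2 CPM of 16 genes in the 9 libraries, 1 panel per gene with its own y axis; dots are libraries and bars the mean ± SD of 3. Irf1 lies at 7.99 to 8.32 in MC38 alone and at 11.55 to 11.70 in the anti-PD1 co-culture, Bnip3 falls from 7.60 to 7.85 to 5.81 to 6.16, and Casp8 overlaps between the groups.

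Chemokines had the largest median rise of the lists. All 11 genes of the list rose, under every setting tried, with a median log2 fold change of 4.22. Cxcl9 and Cxcl10, ligands of CXCR3 that draw in activated T cells, and the related Cxcl11 led them. Cxcl9 stood at -1.03, 0.030 and 2.04 in the controls and at 9.39, 9.06 and 9.15 in co-culture. The controls spread over 3 log2 units, with the third highest, yet all lay more than 7 units below the co-cultures (8.86 ± 0.58, adjusted p = 4.57e-06). With the first control left out the log2 fold change was 8.17, and with the third left out 9.70. Cxcl10 went from 4.96, 4.77 and 5.66 to 11.62, 11.47 and 11.25 (79.6-fold, 6.32 ± 0.20, adjusted p = 3.85e-08). Cxcl11 went from 0.26, -0.21 and 1.75 to 7.91, 7.70 and 8.03 (7.28 ± 0.39, adjusted p = 1.07e-06). The GENCODE annotation of GRCm38 lists Cxcl11 as a polymorphic pseudogene, so its value is an RNA level only. Chemokines for monocytes and neutrophils rose too. Ccl2, the main monocyte attractant, chr11:82035571-82037453, stood at 6.45, 6.51 and 6.43 alone and at 11.87, 11.87 and 11.91 in co-culture, the smallest adjusted p of all genes (42.8-fold, 5.42 ± 0.11, adjusted p = 2.67e-09). Ccl7, a near relative, rose by 4.22 ± 0.25, the neutrophil chemokine Cxcl1 by 3.80 ± 0.32 (adjusted p = 2.97e-05) and Ccl5, which activated CD8 T cells also make, by 2.00 ± 0.10 (adjusted p = 7.76e-07). The list also held 2 cytokines. Csf1, the macrophage growth factor, rose by 2.65 ± 0.097 and Lif, a cytokine of the IL6 family, by 4.45 ± 0.25 (adjusted p = 7.92e-08 and 1.31e-06). Ccl12, another monocyte chemokine outside the list, had every control at its lowest value and was at least 10.6-fold higher in co-culture, taking 3 reads per library as the floor.

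Within antigen presentation, genes that make and load peptides rose, whereas of the main class I genes H2-D1 rose and H2-K1 and B2m did not pass. Of 24 genes in the list for MHC class I presentation, 14 rose, with a median of 0.80. Tap1, chr17:34187553-34197225, a subunit of the peptide transporter, stood at 5.43, 5.58 and 4.75 alone and at 8.01, 8.02 and 7.94 in co-culture (6.67-fold, 2.74 ± 0.19, adjusted p = 6.59e-06). Tap2, the other subunit, rose by 2.70 ± 0.24, and Nlrc5, the transactivator of class I genes, by 2.53 ± 0.25 (adjusted p = 4.83e-05 and 8.92e-05). The immunoproteasome subunits Psmb8, Psmb9 and Psmb10 rose by 1.25 ± 0.21, 2.26 ± 0.16 and 1.60 ± 0.14 (adjusted p = 0.00259, 7.21e-06 and 3.92e-05). Tapbpl, a peptide editor, rose by 2.22 ± 0.18 and H2-M3, a non-classical class I heavy chain, by 2.51 ± 0.46. The heavy chains and the light chain began high. H2-D1 went from 9.08, 9.08 and 9.07 to 9.73, 9.67 and 9.43, a rise of 0.53 ± 0.11 (adjusted p = 0.00989). H2-K1, which presents the ovalbumin peptide to OT1 cells, stood at 9.44, 9.41 and 9.19 and 9.65, 9.61 and 9.61 and did not pass, although the groups did not overlap (0.28 ± 0.097, adjusted p = 0.0807). B2m, the light chain, stood at 0.29 ± 0.14 (adjusted p = 0.173) and overlapped between groups. H2-K1 and H2-D1 belong to a family of near-identical genes, so reads may have been shared between its members. The single class II gene tested, H2-DMb1, did not pass (0.37 ± 0.18, adjusted p = 0.195).

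Ligands that T cells read on tumour cells rose in 6 of 11 cases (median 1.25). Cd274, chr19:29367455-29388095, encoding the PD1 ligand PD-L1, stood at 3.71, 3.51 and 3.99 alone and at 6.99, 7.23 and 7.18 in the anti-PD1 co-culture. Every co-culture library lay above the third, highest control, a 10.5-fold rise (3.40 ± 0.15, adjusted p = 2.7e-07). Vcam1, an adhesion molecule for T cells, rose by 2.41 ± 0.11, Cd47, which signals to phagocytes not to engulf, by 1.28 ± 0.11, and Lgals9, a ligand of TIM3, by 1.20 ± 0.24 (adjusted p = 4.84e-07, 4.39e-05 and 0.00699). Icam1, the ligand of LFA-1, and Cd40, a receptor of the TNF family, had no more than 3 reads in any control. Against a floor of 3 reads per library Icam1 was at least 6.62-fold higher, at 2.16, 2.35 and 1.95 in the 3 co-cultures, and Cd40 at least 3.92-fold higher, at 1.19, 1.08 and 1.92 (adjusted p = 0.000123 and 0.00251). Pvr and Nectin2, ligands of TIGIT and DNAM-1, stood at 0.12 ± 0.17 and 0.037 ± 0.16 and did not pass (adjusted p = 0.688 and 0.907).

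NF-kB targets rose in 18 of 27 cases with a median of 1.20, and 17 to 19 rose across the settings tried. Nfkbia, chr12:55489410-55492647, encoding the inhibitor IkB-alpha that NF-kB induces against itself, stood at 7.75, 7.83 and 7.95 alone and at 11.75, 11.82 and 11.75 in co-culture. The libraries of a group lay close together, and the groups more than 3 log2 units apart (15.2-fold, 3.93 ± 0.094, adjusted p = 7.42e-09). The sister inhibitors Nfkbib and Nfkbie rose by 2.95 ± 0.23 and 2.95 ± 0.16 (adjusted p = 1.97e-05 and 9.31e-07). Tnfaip3, which encodes the ubiquitin editor A20 that ends the signal, went from -0.11, -0.98 and -1.36 to 1.86, 2.48 and 2.44, with the controls on 7 reads or fewer (3.08 ± 0.39, adjusted p = 0.000502). The subunits Relb, Nfkb1 and Rela rose by 1.78 ± 0.13, 1.33 ± 0.15 and 1.03 ± 0.16. Of the survival genes, Birc3, an inhibitor of cell death downstream of TNF receptors, rose by 2.19 ± 0.14, and Sod2, a mitochondrial antioxidant enzyme, by 2.02 ± 0.13 (adjusted p = 4.81e-06 and 4.57e-06). Cflar, which holds caspase-8 in check, rose by 1.20 ± 0.17 (adjusted p = 0.000914). Birc2, sister of Birc3, stood at 0.35 ± 0.19 and did not pass (adjusted p = 0.254).

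Death receptor genes changed in part, 9 rises among 27 (median 0.14, with 6 to 10 rises across settings). Fas, chr19:34290666-34327772, the receptor for the T cell death ligand FasL, stood at -0.52, 0.55 and 1.62 alone and at 4.67, 4.76 and 4.98 in co-culture (4.25 ± 0.43, adjusted p = 0.00011). All co-cultures lay more than 3 log2 units above the third, highest control. Tnfrsf1a, the main TNF receptor, rose by 1.00 ± 0.092, and Tnfsf10, encoding the death ligand TRAIL, from 0.97, 0.81 and -1.36 to 4.26, 4.37 and 4.22 (adjusted p = 5.93e-05 and 0.000431). Bid, which links death receptors to mitochondria, rose by 1.50 ± 0.16, and the necroptosis genes Ripk1 and Mlkl by 0.84 ± 0.19 and 0.93 ± 0.14 (adjusted p = 0.00018, 0.0147 and 0.00148). The Ripk1 call ended without the first anti-PD1 library (adjusted p = 0.0566). Casp8, the initiator caspase of death receptors, stood at 3.84, 4.06 and 4.09 alone and 3.86, 3.39 and 3.79 in co-culture, where the groups overlapped (-0.32 ± 0.20, adjusted p = 0.31). The adaptor genes Fadd and Tradd did not pass either, with adjusted p = 0.334 and 0.691.

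Of the 6 genes of pyroptosis, a lytic form of cell death, 3 rose, and 5 rose without the third control. Casp4, which senses cytosolic lipopolysaccharide, rose by 2.67 ± 0.22, Casp1 by 1.34 ± 0.22 and the cytokine gene Il18 by 1.39 ± 0.23 (adjusted p = 2.21e-05, 0.00237 and 0.00305). The pore former Gsdmd stood at 2.65, 2.53 and 0.29 and 3.49, 3.49 and 3.32 and did not pass (adjusted p = 0.058), but passed without the first, the second or the third control (0.0327, 0.0423 and 0.00379). In the BCL2 family 5 of 15 rose (median 0.36), and 3 without the first or the third anti-PD1 library. They were Bid, Bak1, Mcl1, Bcl2a1b and Bcl2a1d, the last 2 copies of a survival gene of blood cells. Mcl1, another survival gene, rose by 0.36 ± 0.11 (adjusted p = 0.0433). It lost the call (0.0599 to 0.14) without any 1 library other than the third control and the second anti-PD1 library. Bcl2a1d had every control at its lowest value and was at least 10.2-fold higher in co-culture against the floor of 3 reads per library. These copies are near-identical, so their reads may be shared. Bak1, a pore former of the mitochondrial outer membrane, rose by 1.29 ± 0.33 (adjusted p = 0.0249, and 0.0676 to 0.0771 without any 1 anti-PD1 library). Of 18 p53 targets 7 rose and 1 fell (median 0.51), beside 8.42% and 7.71% of all genes. Btg2, an antiproliferative gene, rose by 2.92 ± 0.37, the kinase gene Plk2 by 1.27 ± 0.15, the cell cycle inhibitor Cdkn1a by 1.18 ± 0.14 and Mdm2, which degrades p53, by 1.17 ± 0.16 (adjusted p = 0.000511, 0.000259, 0.000344 and 0.000886).

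Immediate early genes, which growth factor and stress kinases switch on within minutes, rose in 17 of 26 cases and fell in 2 (median 1.37). The share that fell was near the 7.71% of all genes, whereas 8.42% of all genes rose. Egr1, a zinc finger factor, stood at 4.68, 4.53 and 4.45 alone and at 7.39, 7.78 and 7.52 in co-culture (8.06-fold, 3.01 ± 0.16, adjusted p = 1.11e-06). Zfp36, whose protein degrades cytokine mRNAs, had the largest rise of the list, 5.38 ± 0.47 (adjusted p = 3.73e-05), and 4.77 without the third control. Junb and Jun, subunits of AP-1, rose by 2.52 ± 0.20 and 1.05 ± 0.090, and Myc by 1.70 ± 0.21 (adjusted p = 1.88e-05, 3.49e-05 and 0.00045). Dusp5 and Dusp6, phosphatases that switch ERK off, rose by 2.09 ± 0.31 and 1.44 ± 0.11. Fos, the partner of Jun, was near the floor in the controls and did not pass (1.83 ± 0.67, adjusted p = 0.0951, and 0.0411 without the first anti-PD1 library). Klf2 fell by 1.14 ± 0.14 (adjusted p = 0.000482), whereas its relatives Klf4 and Klf6 rose by 1.25 ± 0.12 and 1.63 ± 0.10.

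Of the genes of the hypoxia response 12 of 16 fell and none rose (median -0.59), and 10 to 13 fell across the settings tried. These genes are targets of hypoxia-inducible factors, and the sources used here record no oxygen level. Bnip3, chr7:138890836-138909519, a receptor for the removal of mitochondria, stood at 7.85, 7.75 and 7.60 alone and at 5.98, 5.81 and 6.16 in co-culture. Each co-culture library lay more than 1 log2 unit below each control (3.36-fold lower, -1.75 ± 0.12, adjusted p = 6.54e-06). Slc2a1, the glucose transporter GLUT1, went from 7.09, 7.00 and 7.27 to 6.05, 5.99 and 5.94 (-1.12 ± 0.11, adjusted p = 9.22e-05). Ankrd37 had the largest fall of the list, from 4.61, 3.99 and 4.77 to 1.08, 1.70 and 1.95 (-2.88 ± 0.39, adjusted p = 0.000739). Egln1 and Egln3, oxygen sensors that mark hypoxia-inducible factors for destruction, fell by 0.96 ± 0.11 and 1.40 ± 0.18, the histone demethylase gene Kdm3a by 1.54 ± 0.18 and the angiogenic factor Vegfa by 0.72 ± 0.14 (adjusted p = 0.000267, 0.000502, 0.000325 and 0.00695). Car9, Ndrg1, P4ha2 and Adm did not pass, though P4ha2 did without the third control (adjusted p = 0.0305). Car9, a surface carbonic anhydrase often read as a hypoxia marker, stood at 5.21, 4.58 and 4.28 and 4.44, 4.69 and 4.69 (-0.084 ± 0.23, adjusted p = 0.838).

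Glycolysis genes fell in 5 of 18 cases under each setting tried (median -0.38), and Slc2a1 and Hk2 belong to the hypoxia list as well. The lactate exporter Slc16a3 fell by 0.80 ± 0.16, Pfkl, a subunit of phosphofructokinase, by 0.69 ± 0.14 and Gpi1 by 0.54 ± 0.10 (adjusted p = 0.00906, 0.0103 and 0.00519). Pgk1, Gapdh and Ldha, further along the pathway, did not pass (0.0074 ± 0.098, 0.068 ± 0.21 and -0.28 ± 0.11, adjusted p = 0.97, 0.863 and 0.12). Ddit4, which restrains mTOR and is also induced by hypoxia and by ATF4, stood at 7.44, 6.91 and 6.63 alone and 4.40, 4.85 and 4.83 in co-culture (4.92-fold lower, -2.30 ± 0.21, adjusted p = 6.51e-05). It was 1 of 2 members of the ATF4 and unfolded protein response list that fell, beside Psat1 (-0.53 ± 0.10). Those 2 falls among 24 members were near the 7.71% of all genes that fell. In that list 7 rose (median 0.17), beside 8.42% of all genes. Without the third anti-PD1 library 3 of the list rose, and 711 of all 12707 genes. Slc7a11, the cystine importer, rose by 1.19 ± 0.11 (adjusted p = 8.3e-05). The chaperone Hspa5 and the stress factor Ddit3 did not pass (0.062 ± 0.098 and 0.065 ± 0.18, adjusted p = 0.715 and 0.845).

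**Figure D4:**
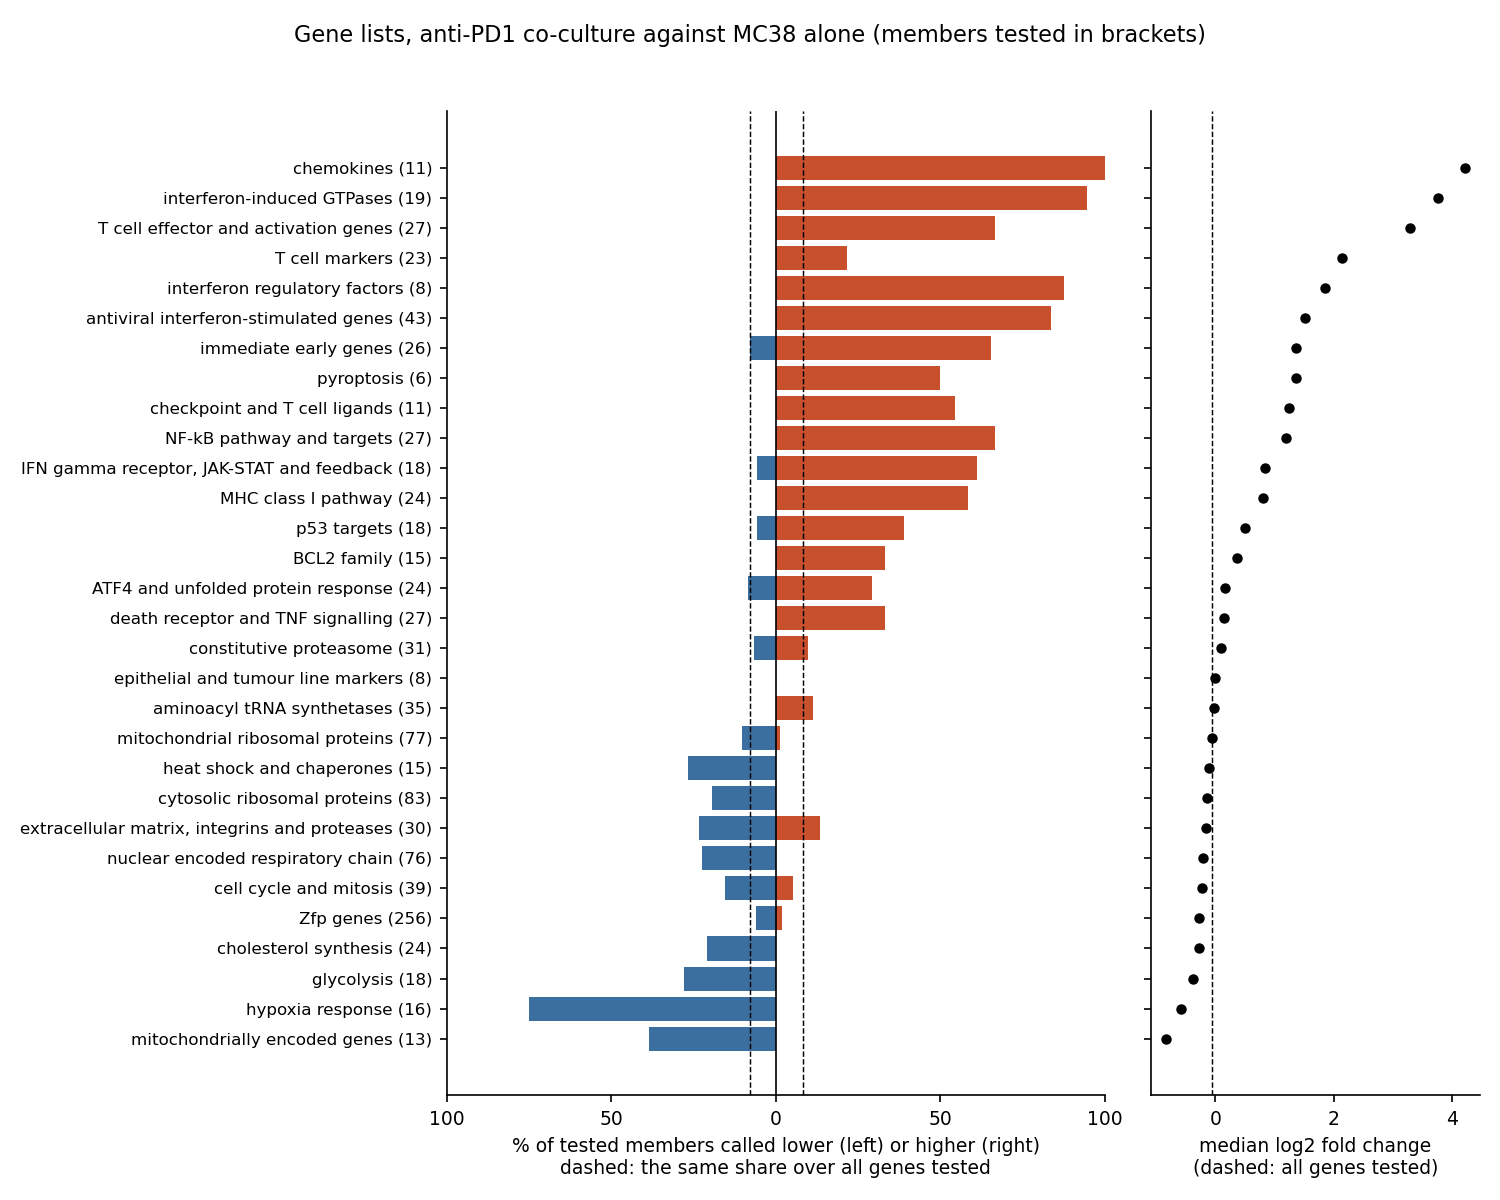
Share of the tested members of each gene list that rose (right) or fell (left) in the anti-PD1 co-culture against MC38 alone, in percent, and the list's median log2 fold change (right panel, 1 dot per list). Dashed lines mark the 8.42% of all genes that rose and the 7.71% that fell; all 11 chemokine genes rose, and 12 of 16 hypoxia genes fell.

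Sterol, cell cycle and matrix lists changed in smaller part. Over all genes tested 8.42% rose and 7.71% fell, and without the third anti-PD1 library 517 of 12707 fell. Of 24 genes of cholesterol synthesis 5 fell (median -0.28), and 10 fell without the third control. Insig1, which holds back the sterol-sensing factors, fell by 1.49 ± 0.26, and Hmgcs1, Msmo1 and Stard4 fell by 0.70 ± 0.15, 0.58 ± 0.11 and 0.68 ± 0.11 (adjusted p = 0.00356, 0.0112, 0.00693 and 0.00262). Of 39 cell cycle genes 6 fell and 2 rose (median -0.22), but 3 fell without the first and 2 without the third anti-PD1 library. The share that rose was below that of all genes. Without the third anti-PD1 library the share that fell was near that of all genes in the same fit. Mki67, the proliferation marker Ki-67, stood at 5.73, 5.90 and 5.84 alone and at 5.18, 4.58 and 4.20 in co-culture, where the third library was lowest (-1.17 ± 0.23, adjusted p = 0.00698, and 0.0233 without that library). Ccnd1 (cyclin D1) rose by 1.11 ± 0.10 (adjusted p = 6.77e-05), whereas the mitotic regulators Ccnb1, Plk1 and Cdk1 did not pass (adjusted p = 0.194, 0.911 and 0.698). Of 30 matrix and protease genes 7 fell and 4 rose (median -0.16), and without the third anti-PD1 library 2 fell and 2 rose. Without the first control 4 fell. Those that rose included Plau, Plaur and Timp1, which encode urokinase, its receptor and an inhibitor of metalloproteinases, and Plau and Plaur rose most (1.96 ± 0.15 and 1.80 ± 0.27, adjusted p = 1.4e-05 and 0.00152). Timp1 lost the call without the third anti-PD1 library (adjusted p = 0.123) and also without the second control, the third isotype or the first anti-PD1 library (0.0933, 0.0593 and 0.104). Those that fell included fibronectin, Fn1, by 1.18 ± 0.27 (adjusted p = 0.0148, and 0.0545 without the third anti-PD1 library), the laminin chain Lamb1 by 0.86 ± 0.14 and 4 collagen chains.

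Some transcripts of mitochondria and ribosomes fell. Of all 12707 genes tested 7.71% fell and 8.42% rose. The 13 mitochondrially encoded genes summed to 8749 to 11401 CPM in the controls and to 4377 to 7072 CPM in the anti-PD1 libraries, which did not overlap. Singly, 5 of the 13 fell (median -0.84), while 3 fell without the first control and 2 without the second or the third anti-PD1 library. The oxidase gene mt-Co3 went from 10.61, 10.17 and 10.16 to 9.51, 9.37 and 8.81 (-1.09 ± 0.20, adjusted p = 0.00508) and the ATP synthase gene mt-Atp6 from 10.84, 10.69 and 10.92 to 10.11, 9.96 and 9.79 (-0.86 ± 0.17, adjusted p = 0.00721). Calls of mt-Co2 and mt-Nd2 were lost without the second anti-PD1 library (adjusted p = 0.0754 and 0.0673) or the third (0.0864 and 0.0642), that of mt-Co2 also without the first control (0.0811). Among nuclear genes of the respiratory chain 17 of 76 fell and none rose (median -0.21), and among cytosolic ribosomal proteins 16 of 83 fell and none rose (median -0.14). The respiratory chain count was 8 without the second anti-PD1 library. The ribosomal count was 7, 5 and 10 without anti-PD1 libraries 1, 2 and 3 in turn, and 10 without the second control or the third isotype library. Of all 12707 genes 550, 503 and 517 fell without anti-PD1 libraries 1, 2 and 3 in turn. Without the second, the ribosomal share was near that of all genes. With only the compared groups fitted, 10 respiratory chain and 9 ribosomal genes fell, and 523 of all 12707 genes.

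Some of the largest changes lay outside these lists. Of the rises, Ubd, a ubiquitin-like protein induced jointly by interferon-gamma and TNF, stood at -0.11, 0.69 and 0.69 alone and at 7.15, 7.09 and 7.56 in co-culture (6.84 ± 0.23, adjusted p = 3.92e-08). Batf2, a transcription factor induced by interferon-gamma, went from -1.03, -0.52 and -0.34 to 5.56, 5.70 and 5.79 (6.31 ± 0.20, adjusted p = 3.35e-08). Apol6, an apolipoprotein L, and Acod1, which makes itaconate, had at most 2 reads in any control and were at least 69.6-fold and at least 50.3-fold higher against the floor of 3 reads per library. In each of these 4 genes the 3 co-cultures lay together, more than 4 log2 units above the controls. Of the falls, Slc5a3, an importer of myo-inositol, stood at 7.71, 7.61 and 7.78 alone and at 5.53, 5.63 and 5.23 in co-culture (4.71-fold lower, -2.24 ± 0.13, adjusted p = 2.39e-06). Arrdc3, an arrestin-like adaptor, fell by 2.28 ± 0.27 and Medag by 3.18 ± 0.45 (adjusted p = 0.000346 and 0.00104). Gm28437 and Gm28661, nuclear copies of mitochondrial sequence whose reads may be shared with the mitochondrial genes, fell too, Gm28661 by 3.10 ± 0.65 (adjusted p = 0.0101). Gm28437 stood at 10.49, 9.95 and 10.15 alone and at 6.08, 5.49 and 9.24 in co-culture, where the third library lay apart from its fellows and close to the isotype libraries at 9.45, 8.21 and 9.22 (-3.26 ± 0.78, adjusted p = 0.019). Without the third library the log2 fold change of Gm28437 was -4.41, and without the second it was -2.54. The call was lost without the first control or the first or second anti-PD1 library (adjusted p = 0.0529, 0.0722 and 0.0683). The pseudogenes Gm10925, Rpl13-ps3 and Gm5616 were also among the 10 largest falls, at -3.10, -2.93 and -2.72 (adjusted p = 0.0279, 0.0114 and 0.0443). Their calls held under 12, 19 and 5 of the 19 alternatives tried. Gm10925, chr1:24613974-24614651, lies between Gm28437 and Gm28661, so the falls of these 3 may not be separate observations. Gm4841, among the 10 largest rises, rose by 6.82 (adjusted p = 5.86e-07).

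Transcripts of T cells were followed as effector genes and as lineage markers. Activation and effector genes rose in 18 of 27 cases, in 23 without the third control, and in 11, 10 and 9 without the second control, the second and the third anti-PD1 library. Ifng, the gene of interferon-gamma, stood at -1.63, -2.66 and 1.85 alone and at 6.48, 6.49 and 6.54 in the anti-PD1 co-culture (adjusted p = 0.000336, and 3.34e-08 without the third control). The first and second controls had at most 1 read, and the co-cultures lay more than 4 log2 units over the third control. Xcl1, a chemokine of activated CD8 T cells, went from -2.58, -2.66 and 1.49 to 4.95, 5.33 and 5.44 (adjusted p = 0.000811). Ccl3, a chemokine, and Ctla4, an inhibitory receptor that T cells gain on activation, had no more than 3 reads in any control and were at least 23.2-fold and at least 20.2-fold higher. Tnf, with every control at its lowest value, was at least 1.64-fold higher and stood at 0.57, 0.064 and -0.21 (adjusted p = 0.0316). That call ended without the first or second control, the second isotype library or any 1 anti-PD1 library (adjusted p = 0.0527 to 0.106). The protease gene Gzmb, which rose (adjusted p = 0.0165, but 0.0523, 0.0532 and 0.0583 without the second control, the second or the third anti-PD1 library), stood at -2.58, -1.26 and 3.40 and 4.57, 4.91 and 5.14, with the third control 1 to 2 log2 units below the co-cultures. Of the lineage markers 5 of 23 rose, 19 without the third control, and 2 or 3 without any 1 other control or anti-PD1 library. Cd8a, the coreceptor of these T cells, stood at -2.58, -2.66 and 1.75 alone and at 1.92, 1.19 and 2.04 in co-culture (adjusted p = 0.0738, and 4.06e-05 without the third control). Ptprc, the pan-leukocyte marker CD45, was highest in the third control, at -2.58, -1.63 and 3.15 alone against 1.92, 2.29 and 1.95 (adjusted p = 0.19, and 8.19e-05 without it). Pdcd1, which encodes PD1, stood at -2.58, -2.66 and 0.50 and 0.26, 0.064 and 0.96, near the floor in each library (adjusted p = 0.174, and 0.0216 without the third control). Of the 23 markers, 13, 11 and 1 were at the lowest value of the library in the 3 controls, and none in the co-cultures.

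Set directly against the isotype co-culture, the arm most like it, the anti-PD1 co-culture had no gene past the threshold among the 12707 tested (0% called). At an unadjusted p under 0.05 there were 347 genes, and the smallest adjusted p was 0.0745, for the predicted gene Gm6395. The 347 were less than 5% of the genes tested, the share that this cutoff passes on average where no gene differs. That count depended on the fit. It was 726 without the third control, 727 with only the compared groups and 889 with library weights, each above that share. Under the other alternatives it was 230 to 566, below that share. A missing call does not show that the arms were alike. The median half-width of the 95% interval of a fold was 0.49 on the log2 scale. For Irf1 the difference, anti-PD1 minus isotype, was 0.095, 95% interval -0.16 to 0.35, for Gbp2 -0.067, 95% interval -0.45 to 0.32, for Nfkbia 0.014, 95% interval -0.20 to 0.22 and for Ifng 0.028, 95% interval -1.91 to 1.96. Cd274, the gene of the ligand whose contact anti-PD1 blocks, stood at 6.73, 6.39 and 6.55 in the isotype and at 6.99, 7.23 and 7.18 in the anti-PD1 co-culture. The groups did not overlap, and the difference was 0.58, 95% interval 0.25 to 0.91, with an adjusted p of 0.9998. Against the shared controls the Cd274 rise was 2.82 ± 0.15 with isotype and 3.40 ± 0.15 with anti-PD1. Those 347 genes, each with an interval that leaves out 0, also included Ccl2 (0.40, 95% interval 0.16 to 0.65), Birc3 (0.48, 95% interval 0.16 to 0.80), Bid (0.42, 95% interval 0.063 to 0.79), Tap2 (1.01, 95% interval 0.47 to 1.55), Lif (0.65, 95% interval 0.10 to 1.20), Xbp1 (0.55, 95% interval 0.24 to 0.87) and Atf3 (1.05, 95% interval 0.14 to 1.97). For 2 others of them the interval lay below 0, Klf2 (-0.33, 95% interval -0.64 to -0.013) and the heat shock gene Hsph1 (-0.34, 95% interval -0.62 to -0.062). Each of these 9 had an adjusted p of 0.9998 and was singled out after its values were seen. For the chemokine and hypoxia lists the isotype medians against the shared controls were 3.80 and -0.80, beside 4.22 and -0.59 for anti-PD1.

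The cytokine libraries of the series (n = 2 per group, normalized apart from the co-cultures) give folds over untreated MC38 that can be read beside these, as estimates with limma's SE and no test. For Gbp2 the co-culture fold of 5.04 ± 0.17 stood beside 2.77 ± 0.17 with IFNG and 0.40 ± 0.17 with TNF. Nfkbia showed the other pairing, 3.93 ± 0.094 in co-culture, 3.39 ± 0.14 with TNF and -0.15 ± 0.14 with IFNG. Irf1 was high with each of them, at 2.47 ± 0.12 with TNF, 3.06 ± 0.12 with IFNG and 3.44 ± 0.12 with both, beside 3.44 ± 0.11. Cxcl9 and Ubd stood at 8.86 ± 0.58 and 6.84 ± 0.23 in co-culture, beside 5.73 ± 0.23 and 4.08 ± 0.46 with both cytokines. Ccl2 stood at 5.42 ± 0.11 beside 3.22 ± 0.43 with TNF and -1.21 ± 0.43 with IFNG. For Cd274 the values were 3.40 ± 0.15 in co-culture, 2.87 ± 0.38 with IFNG and 3.31 ± 0.38 with both.

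A number of genes that moved in co-culture stood near 0 with the cytokines. Egr1, at 3.01 ± 0.16 in co-culture, was at 0.36 ± 0.23 with both cytokines, and Klf6, at 1.63 ± 0.10, at 0.091 ± 0.15. Of the hypoxia genes, Bnip3 fell by 1.75 ± 0.12 in co-culture and stood at 0.049 ± 0.21 with both cytokines, and Egln3 fell by 1.40 ± 0.18 and stood at 0.39 ± 0.21. Slc2a1 was below 0 in each, at -1.12 ± 0.11 and -0.84 ± 0.31. The hypoxia list as a whole lay below 0 with the cytokines too. The median of its 15 genes in the cytokine table was -0.25 with TNF, -0.22 with IFNG and -0.33 with both. Over all shared genes the median with both was 0.010. For some genes the sign differed. Tap2 stood at 2.70 ± 0.24 in co-culture and at -2.16 ± 0.74 with both cytokines, Ptgs2, the inducible cyclooxygenase, at 1.86 ± 0.17 and -1.33 ± 0.53, and Myc at 1.70 ± 0.21 and -0.71 ± 0.32. Over all genes, 979 that rose in co-culture were also in the cytokine table, and 62.2% of them had a positive fold with both cytokines, against 50.7% of all 12165 shared genes. With TNF alone the share was 62.7% against 51.7%, with IFNG alone 56.0% against 54.7%, and with supernatant of a co-culture 58.5% against 52.0%. Of 967 that fell, 54.5% had a negative fold with both cytokines, against 49.3% of all, and 53.8% with TNF, against 48.3%. With IFNG the share that was negative was below that of all genes, at 42.2% against 45.3%, and with the supernatant it was 48.1% against 47.9%.

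**Figure D5:**
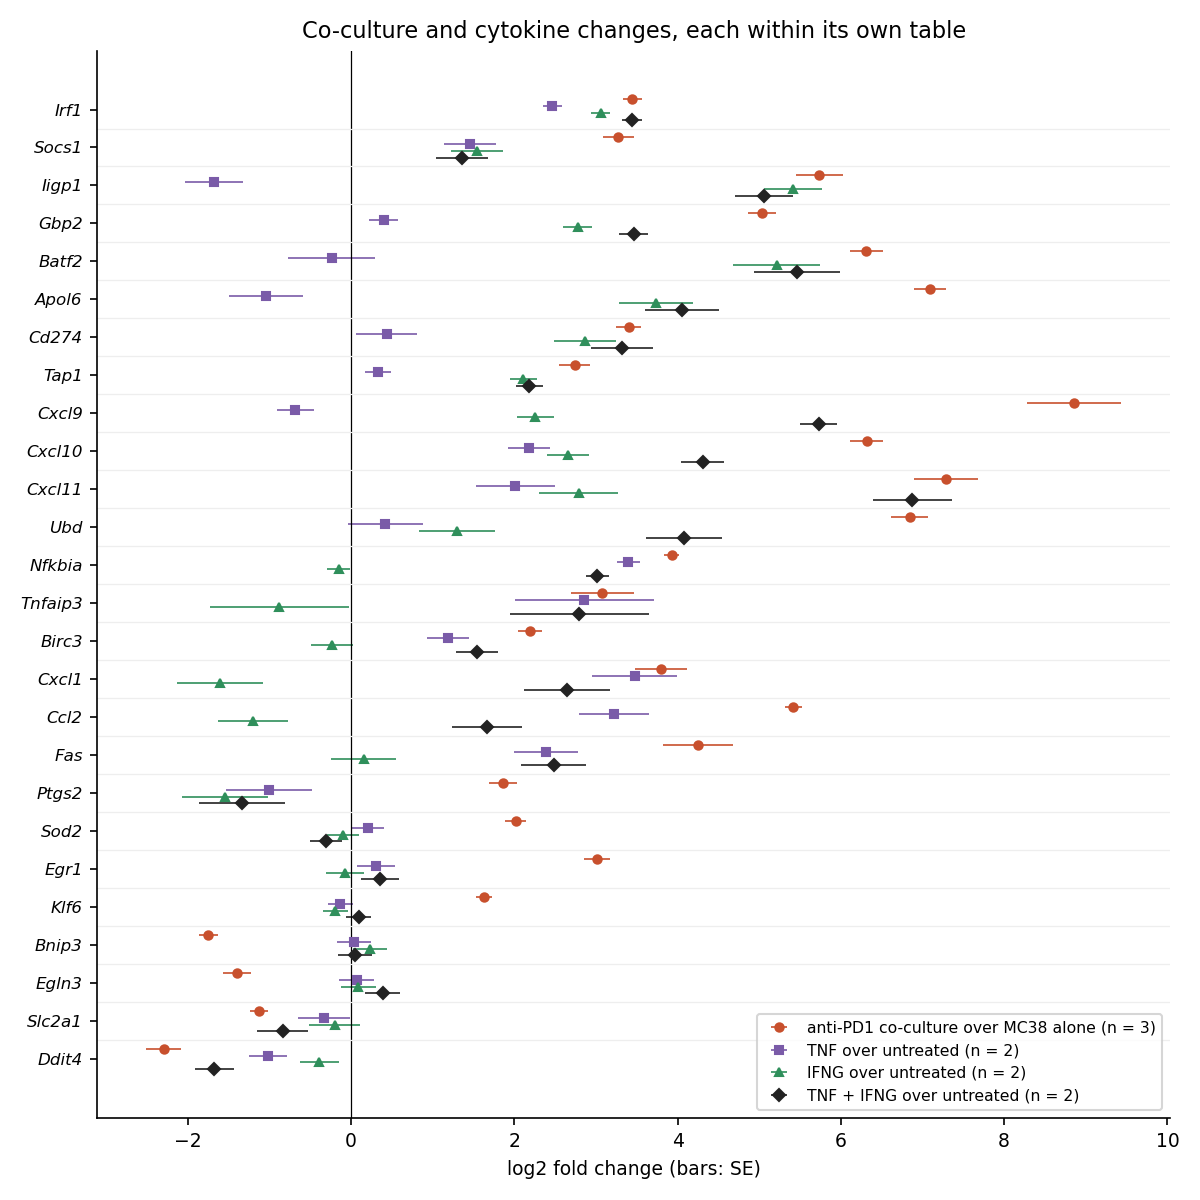
Log2 fold change ± SE of 26 genes in the anti-PD1 co-culture over MC38 alone (n = 3 per group) beside TNF, IFNG and both cytokines over untreated MC38 (n = 2 per group, a separate table). Gbp2 stands at 5.04 in co-culture and at 2.77 with IFNG, Nfkbia at 3.93 and at 3.39 with TNF, and Bnip3 at -1.75 in co-culture and 0.05 with both cytokines.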

How the data were processed

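RNA of the 9 co-culture libraries was read with QuantSeq 3' sequencing, per the labels' protocols. Per the submitters' processing notes the tools were HISAT2 and featureCounts (Subread), with FastQC, cutadapt 1.7 and limma, on GRCm38 or mm10. The sources used here do not say whether counting used strand. The authors deposited log2 CPM values with equal sorted values in every library, that is, quantile normalized, which holds back differences shared by most genes. This was read from the values, whose linear sums were 993229 to 993249 per co-culture library, and reads per library were estimated from the steps between the lowest values.

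Of 12948 genes, 239 below log2 0 in all but 2 or fewer libraries and 2 constant ones were left out. The 3 groups were fitted together with limma 3.58.1 (R 4.3.3; linear model, intensity trend, 6 residual and 4.12 prior degrees of freedom), and p-values were adjusted by Benjamini-Hochberg over the 12707 genes. A gene rose or fell at an adjusted p under 0.05. Values are log2 fold changes ± SE. The script was tested on simulated data. The cytokine table was fitted apart, for estimates only. A stated bound sets each control at 3 reads.

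The comparison and the gene lists were chosen with earlier results of these data known. Named genes were the key genes of each pathway, the 10 largest rises and 10 largest falls among genes called, without overlap and with a mean of at least log2 3 in the higher group, up to 4 called members of each list, and genes called between the co-cultures. The text leaves out some genes that this rule picked. Further members named by role were chosen after their values were seen. Gene positions are those of GENCODE vM21 on GRCm38. Alternatives tried were other filters, log2(CPM + 1), no intensity trend, only the compared groups, library weights, a replicate block, scaling on housekeeping genes, each library left out and, chosen after seeing the data, a common floor.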

Additional observations from a re-analysis of the deposited data

How the results depend on the processing

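No gene that rose or fell passed in the opposite direction under any of the 19 alternatives tried. Across the 9 fits with 1 library left out, 1226 to 2571 genes passed (711 to 1322 higher, 503 to 1249 lower), most without the third control and fewest without an anti-PD1 library. Fitting only the compared groups gave 1251 genes (728 higher, 523 lower), with fewer libraries to estimate the spread, and the replicate block 1707. Replicate numbers did not pair the libraries: deviations of same-numbered libraries correlated at -0.0541 to 0.109. Between the co-cultures the block passed 0 genes. Library weights passed 1 there (Gm6395), and so did the fit without both the third control and the third anti-PD1 library (Rpl10-ps6). With 1 library left out, 0 to 1 gene passed: Gm6395, Rps26-ps1 and Apoo-ps without isotype libraries 1, 2 and 3, and Bnip3l-ps and Gm4342 without anti-PD1 libraries 1 and 2. The other alternatives passed 0, with 266 to 727 genes at an unadjusted p under 0.05. The causes were not tested. Scaling on housekeeping genes passed 1084 higher and 799 lower genes and moved the median of all genes by 0.0256. For the 226 genes followed through the alternatives, 3992 of 4280 refits kept the call of the reported fit, 266 lost it and 22 gained one. Depth limits genes at or near the lowest value, where the third control, the shallowest, could not show less than log2 -1.36.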

Other observations

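Aminoacyl tRNA synthetases, which charge tRNAs with amino acids, rose in 4 of 35 cases and fell in none (median -0.02). Over all genes tested 8.42% rose and 7.71% fell, so the count of rises is near the background. Wars, the tryptophan enzyme and an interferon-gamma target, stood at 2.51, 3.03 and 2.86 alone and at 4.46, 3.99 and 4.58 in the anti-PD1 co-culture (log2 fold change 1.54 ± 0.20, adjusted p = 0.000682). The groups did not overlap. Rars and Kars, the arginine and lysine enzymes, rose by 0.65 ± 0.13 and 0.62 ± 0.13 (adjusted p = 0.00742 and 0.00913), and Tars, the threonine enzyme, by 0.51 ± 0.12 (adjusted p = 0.0179). The Tars call was lost without the first or second control (adjusted p = 0.0527 and 0.0534) or any 1 anti-PD1 library (0.0542 to 0.0619).

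Of 31 subunits of the constitutive proteasome 3 rose and 2 fell (median 0.09), again close to the shares over all genes. The lid subunits Psmd8 and Psmd11 rose by 0.78 ± 0.13 and 0.67 ± 0.14 (adjusted p = 0.00232 and 0.00804). Psmb7, the catalytic subunit that Psmb10 replaces in the immunoproteasome, rose by 0.56 ± 0.15 (adjusted p = 0.0284), and that call was lost without any 1 anti-PD1 library (0.0714 to 0.0936). The falls of Psma3 and Psmc6 were lost without any 1 anti-PD1 library (adjusted p = 0.0546 to 0.106 and 0.0583 to 0.137), that of Psma3 also without the second control (0.0594) and that of Psmc6 without the first or second control or the first or the third isotype library (0.054 to 0.0763). Chaperone genes fell in 4 of 15 cases and rose in none (median -0.11), and 2 fell without any 1 co-culture library of either arm. The chaperones that fell in each of those fits were Hsph1, an exchange factor of HSP70 (-0.71 ± 0.13, adjusted p = 0.00413), and Cct4, a subunit of the chaperonin that folds actin and tubulin (-0.49 ± 0.11, adjusted p = 0.0116).

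Markers of other cell types were low. The 3 macrophage and dendritic cell markers tested summed to 6.83 to 10.9 CPM in the controls and 4.42 to 10.1 CPM in the anti-PD1 libraries, and none passed. The 2 natural killer cell markers, Klrd1 and Klrk1, which activated CD8 T cells also express, summed to 0.317 and 0.335 CPM in the first and second controls, 3.34 CPM in the third control and 1.40 to 3.51 CPM in the anti-PD1 libraries. The co-culture table held 3 of the 16 macrophage and dendritic cell markers listed, 2 of the 6 natural killer cell markers and none of the 9 B cell markers.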
